A study of Mus musculus with 2 samples.

Results

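The genes of the alpha2delta subunits of voltage-gated calcium channels, Cacna2d1, Cacna2d2, Cacna2d3 and Cacna2d4, were taken by symbol from the gene lists of the series, and all 4 were found among 39098 gene symbols. The data were single-cell RNA-seq of the right trigeminal ganglion (TG), which holds the sensory neurons of the face, from male C57BL/6 mice of 5 to 8 weeks. One library was made 7 days after an injection of 20 μL CFA (complete Freund's adjuvant, which causes inflammation) into the right vibrissal pad. The other served as control; its label calls it untreated, whereas the methods of the study describe an injection of saline. There was 1 library per condition, and how many mice each held is not given in the sources used here. No difference between the conditions therefore has a replicate check, and no p-value was computed.

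Alpha2delta subunits are extracellular proteins, anchored to the membrane, that assemble with the pore-forming subunit of high-voltage-activated calcium channels and raise the number of channels at the cell surface and at presynaptic terminals. The products of Cacna2d1 and Cacna2d2 are the binding sites of the gabapentinoids gabapentin and pregabalin, drugs used for neuropathic pain. In sensory neurons the Cacna2d1 protein is carried along the axon to the central terminals, and it is known to become more abundant after nerve injury.

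The 4 members were placed with GENCODE M21 (GRCm38, the build named in the submitters' processing notes). Cacna2d1 (ENSMUSG00000040118.15) lies on the plus strand at chr5:15934691-16374511 and Cacna2d2 (ENSMUSG00000010066.15) on the plus strand at chr9:107399612-107529343. Cacna2d3 (ENSMUSG00000021991.9) lies on the minus strand at chr14:28904943-29721864, and Cacna2d4 (ENSMUSG00000041460.14) on the plus strand at chr6:119236526-119352407. Each gene overlaps other annotated genes, among which the coding ones are Lrtm1 (with Cacna2d3) and Lrtm2 (with Cacna2d4). Whether the counting used strand is not given in the sources used here, so reads from these overlaps cannot be told apart.

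The principal transcripts encode 1084 residues (Cacna2d1), 1154 residues (Cacna2d2), 1091 residues (Cacna2d3) and 1144 residues (Cacna2d4). In an alignment of the translated proteins, Cacna2d1 and Cacna2d2 were identical at 55.7% of 1075 aligned residues and Cacna2d3 and Cacna2d4 at 58.1% of 1087, whereas the other pairs had between 29.1% and 31.4%. The family thus falls into a pair that holds the gabapentinoid targets and a pair that does not. A stretch of coding sequence in which the pairs differ is given for each member. It is 123 bases long, in exonic sequence of exons 8 to 10 (Cacna2d1 and Cacna2d2) or 7 and 8 (Cacna2d3 and Cacna2d4). The first capitals mark the 3 codons aligned with the arginine triplet needed for gabapentin binding, and the later capitals the aspartate and the 2 serine codons of the metal ion site that follows.
Cacna2d1: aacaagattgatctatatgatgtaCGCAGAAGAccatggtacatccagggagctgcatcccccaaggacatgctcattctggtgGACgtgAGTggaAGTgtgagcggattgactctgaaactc
Cacna2d2: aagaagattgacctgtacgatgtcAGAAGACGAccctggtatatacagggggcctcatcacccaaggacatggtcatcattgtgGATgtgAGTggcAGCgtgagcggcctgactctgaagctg
Cacna2d3: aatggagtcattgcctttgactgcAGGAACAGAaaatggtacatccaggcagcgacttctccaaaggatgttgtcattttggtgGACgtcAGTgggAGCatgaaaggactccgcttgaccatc
Cacna2d4: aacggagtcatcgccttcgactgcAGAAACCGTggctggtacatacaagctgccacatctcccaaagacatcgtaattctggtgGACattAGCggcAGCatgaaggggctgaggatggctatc
These stretches span chr5:16264290-16267409, chr9:107512323-107513266, chr14:29346947-29347159 and chr6:119267830-119268280 in GRCm38, introns included, and are printed from 5′ to 3′ of the transcript. The triplet is complete in Cacna2d1 (from residue 239) and Cacna2d2 (from residue 280). In Cacna2d3 and Cacna2d4 its middle residue differs, R240N in the numbering of Cacna2d1, counted from 1 at the initiator methionine. The codons of the metal ion site encode aspartate, serine and serine in all 4 genes.

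Cells were assigned by unique molecular identifiers (UMIs, counts of single captured RNA molecules) of marker genes, which left 752 control and 397 CFA neurons. Of these, 676 and 352 fell into 9 neuron classes, named after their gate markers. Mrgprd, Mrgpra3, Sst and Nppb, and Trpm8 mark known types of small-diameter neurons (the last are cold-sensing), and Tafa4, Slc17a8 and Th mark C-fibre low-threshold mechanoreceptors (cLTMR). Nefh marks large neurons with myelinated axons, Calca marks peptidergic neurons, and Sstr2, which encodes a somatostatin receptor, divides the Calca-high neurons with little Nefh. Of the further markers of each class that were no part of the gates, all were higher than in the other neurons in both libraries in 7 classes; Penk was not in Trpm8 neurons, and Pvalb was not in Nefh-high neurons. Neurons held a median of 46488 UMIs (control) and 37246 UMIs (CFA), and the libraries shared 27 cell index numbers. Levels are given as CPM, the UMIs of a gene per 1000000 UMIs summed over the cells of a class. In parentheses stands the exact 95% interval, which covers counting error only and not the spread between animals.

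In all neurons together, Cacna2d1 was detected at 378 CPM (372 to 385) in the control library against 437 CPM (427 to 448) after CFA. Cacna2d2 reached 83.2 CPM (80.3 to 86.1) and 75.8 CPM (71.7 to 80.1), and Cacna2d3 33.6 CPM (31.7 to 35.5) and 29.9 CPM (27.3 to 32.6), respectively. Cacna2d4, a subunit best known from the retina, had 7 UMIs in 7 of the 752 control neurons, or 0.185 CPM (0.0745 to 0.382), and 0 UMIs in the CFA neurons. A count of 0 there allows up to 0.182 CPM (3 counts, exact upper bound 0.223 CPM), and no further comparison of Cacna2d4 was made.

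Nearly every neuron held Cacna2d1 RNA: 98.4% of the control and 99.0% of the CFA neurons had at least 1 UMI. Cacna2d2 was found in 81.4% and 78.6% of the neurons, and Cacna2d3 in 49.6% and 42.8%. With every neuron thinned to 5000 UMIs, which left out 8 control and 2 CFA neurons, these shares were 76.6% and 82.8% for Cacna2d1, 37.0% and 30.9% for Cacna2d2, and 12.5% and 11.9% for Cacna2d3. Of the control neurons 40.6% held UMIs of all of Cacna2d1, Cacna2d2 and Cacna2d3, 49.7% of 2 of them and 8.24% of only 1; the CFA neurons had 34.0%, 52.6% and 13.1%. Cacna2d1 had the most UMIs of the family in 681 of the 752 control neurons and in 371 of the 397 CFA neurons.

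Across the 9 classes, Cacna2d1 was highest in the peptidergic classes. In Sstr2-positive peptidergic C neurons it reached 682 CPM (659 to 705) in the control library against 871 CPM (834 to 910) after CFA. Sstr2-negative peptidergic C neurons followed with 502 CPM (486 to 518) and 588 CPM (562 to 615), and Nefh-high peptidergic neurons with 408 CPM (363 to 457) and 411 CPM (366 to 460.5). These classes took the first, the second and the third place in both libraries. The level in Sstr2-positive peptidergic C neurons was above that of all other neurons by 1.04 (0.98 to 1.09) on the log2 scale in the control library and by 1.26 (1.18 to 1.33) after CFA. For Sstr2-negative ones this difference was 0.53 (0.47 to 0.58) and 0.55 (0.48 to 0.63). Nefh-high peptidergic neurons did not differ from all other neurons beyond counting error, at 0.11 (-0.06 to 0.28) and -0.09 (-0.27 to 0.07).

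The other 6 classes had less Cacna2d1. Trpm8 neurons had 301 CPM (279 to 325) of Cacna2d1 in the control library against 351 CPM (316 to 390.1) after CFA. Mrgprd neurons, non-peptidergic nociceptors, had 268 CPM (258 to 278) and 266 CPM (249.8 to 282), and Mrgpra3 neurons, which respond to pruritogens, 257 CPM (241 to 274) and 234 CPM (203 to 269). These 2 classes did not differ beyond counting error in either library. In cLTMR the level was 205 CPM (190.5 to 219) and 198 CPM (180 to 218), and in Nefh-high neurons 185 CPM (159 to 214) and 151 CPM (117 to 191). Sst and Nppb neurons, another itch-related class, had the lowest control level, 146 CPM (116 to 180.3), but 242 CPM (204 to 285) in the CFA library, where they lay between Mrgprd and Mrgpra3 neurons without differing from either beyond counting error. In the CFA library the intervals of neighbours in the order also held 0 for Nefh-high peptidergic against Trpm8 neurons and for Mrgpra3 neurons against cLTMR, and in the control library for cLTMR against Nefh-high and for Nefh-high against Sst and Nppb neurons.

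**Figure D1:**
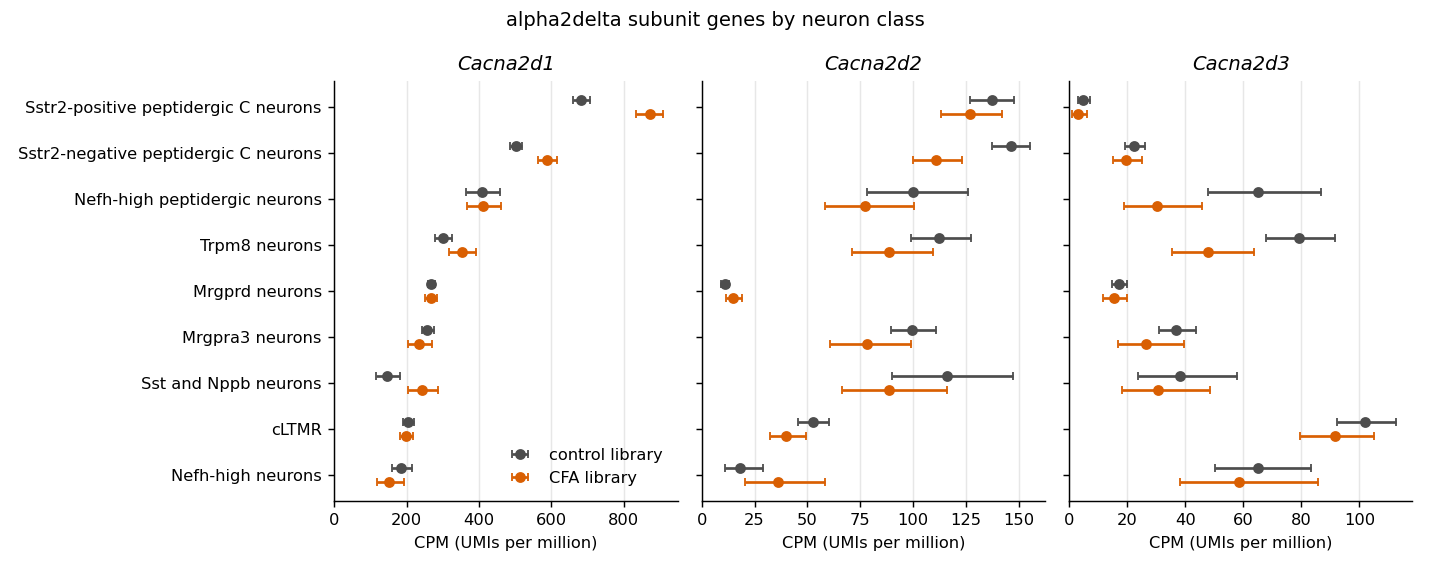
CPM of Cacna2d1, Cacna2d2 and Cacna2d3 (x axes, each on its own linear scale) in the 9 neuron classes (rows), with the control library in grey and the CFA library in orange; points are summed counts and bars exact 95% Poisson intervals for counting error. Cacna2d1 is highest in the peptidergic classes, Cacna2d2 is lowest in Mrgprd neurons at 10.8 and 14.9 CPM, and Cacna2d3 is highest in cLTMR at 102 and 91.7 CPM.

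The level also varied among neurons of 1 class. Among the 126 Sstr2-positive peptidergic C neurons of the control library, Cacna2d1 ranged from 152 to 2343 CPM with a median of 604 CPM and quartiles of 464 and 860 CPM. The 70 CFA neurons of this class ranged from 372 to 1778 CPM, with a median of 861 CPM and quartiles of 707 and 1049 CPM. The lower quartile of the CFA neurons thus lay above the control median, while the ranges overlapped widely. In Sstr2-negative peptidergic C neurons the medians were 505 CPM in 191 control neurons and 601 CPM in 98 CFA neurons, with quartiles of 319 and 674 CPM and of 368 and 827 CPM. In Mrgprd neurons the medians were 253 and 247 CPM, with quartiles of 189 and 317 CPM in the control and 209 and 313 CPM after CFA.

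Within Trpm8 neurons Cacna2d1 went with Calca, which encodes the neuropeptide CGRP. The 9 control Trpm8 neurons with at least 2000 CPM of Calca had 743 CPM (655 to 840) of Cacna2d1, and the 35 others 220 CPM (199 to 242). In the CFA library 3 such neurons had 1122 CPM (935 to 1336) and the 20 others 254 CPM (222 to 289). Levels of Cacna2d2 in these subsets were 168 and 102 CPM in the control and 107 and 86.6 CPM after CFA. This split was chosen after the values of single neurons were seen, and the CFA subset with high Calca holds only 3 neurons. For Cacna2d1, the 35 control neurons with less Calca lay below control Mrgprd neurons, at 268 CPM (258 to 278). The control Trpm8 class as a whole lay above them. After CFA the interval of the 20 others overlapped that of Mrgprd neurons, 249.8 to 282 CPM.

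Among the peptidergic C neurons the level was also read by the number of Sstr2 UMIs. Neurons with none had 502 CPM in the control library against 588 CPM after CFA, as given above, and those with 1 UMI had 604 CPM (569 to 641) and 676 CPM (623 to 732). With 2 or 3 UMIs it was 687 CPM (652 to 724) and 848 CPM (773 to 929), and with 4 or more 678 CPM (649 to 709) and 878 CPM (836 to 922). The number of Sstr2 UMIs also depends on depth, whose medians in these groups lay between 32714 and 37740 UMIs in the control and between 27075 and 34236 UMIs after CFA.

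**Figure D2:**
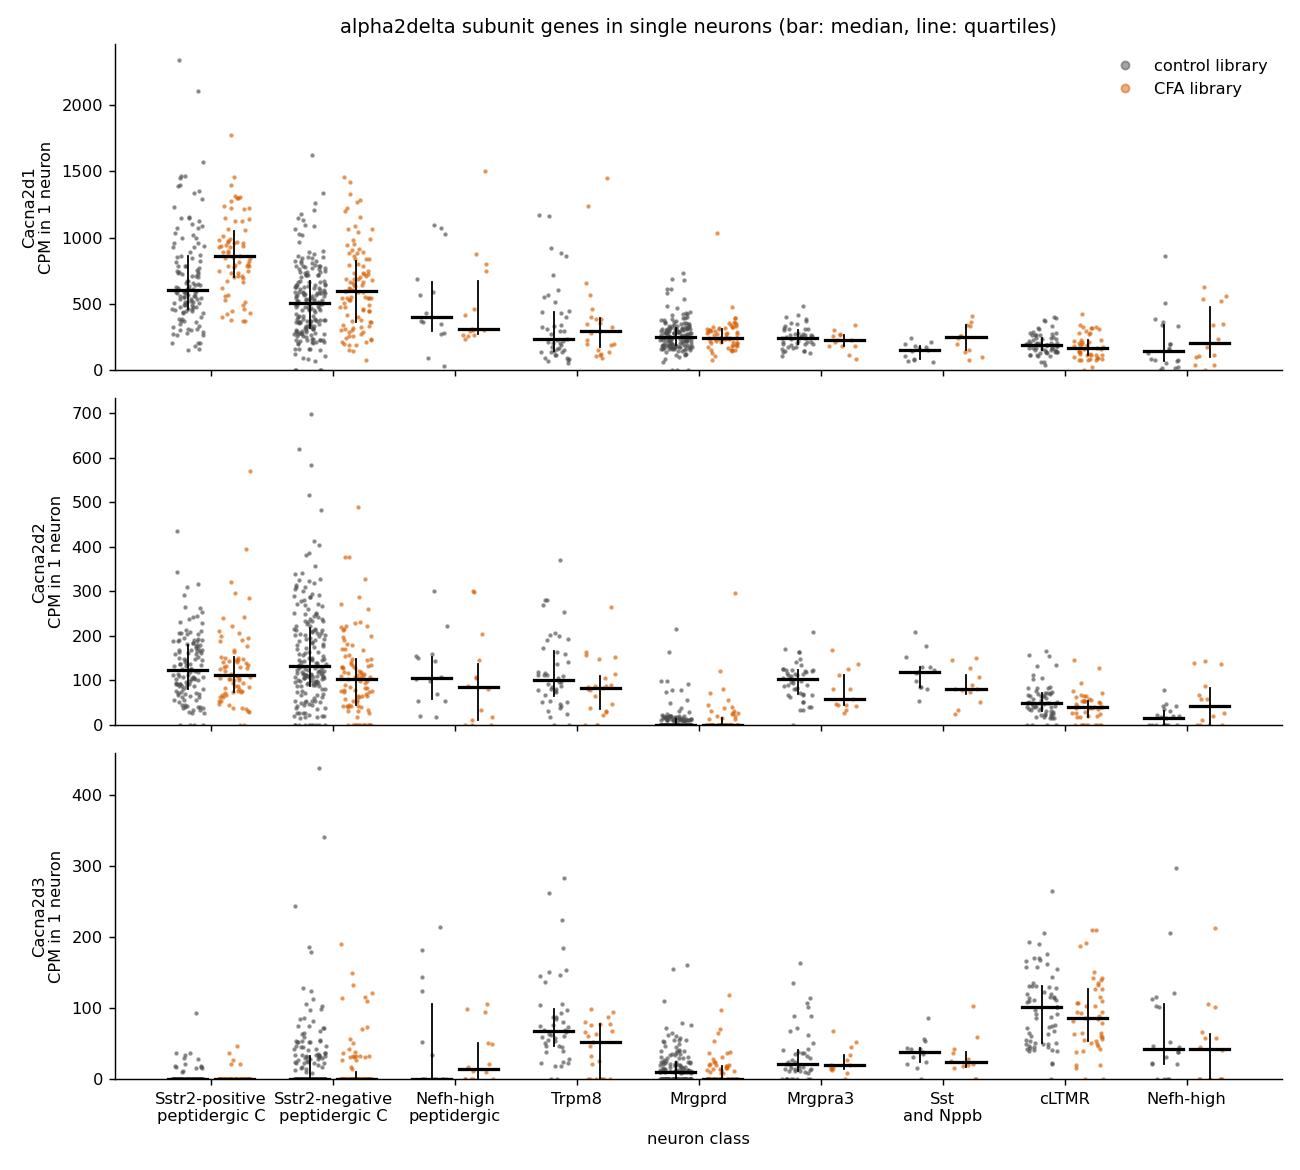
CPM of Cacna2d1, Cacna2d2 and Cacna2d3 in single neurons (y axes, linear; 1 point per neuron) by neuron class (x axis) and library; thick bars are medians and thin lines run from the lower to the upper quartile. In Sstr2-positive peptidergic C neurons the Cacna2d1 median is 604 CPM in the control library against 861 CPM after CFA, and most neurons of this class and of the Mrgprd class have few or no UMIs of Cacna2d3.

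Cacna2d2, the other gabapentinoid target, was present in most classes and low in a few. In Sstr2-negative peptidergic C neurons it had 146 CPM (138 to 155) in the control library against 111 CPM (99.8 to 123) after CFA, and in Sstr2-positive ones 137 CPM (127 to 148) and 127 CPM (113 to 142). Trpm8, Sst and Nppb, Mrgpra3 and Nefh-high peptidergic neurons had between 99.7 and 116 CPM in the control and between 77.2 and 88.8 CPM after CFA, and from the first to the sixth place in the order no class differed from the next beyond counting error. The level was lower in cLTMR, at 52.6 CPM (45.6 to 60.4) and 40.0 CPM (32.1 to 49.2). Nefh-high neurons had 18.3 CPM (10.9 to 29.0) and 35.9 CPM (20.5 to 58.4).

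Mrgprd neurons had the lowest Cacna2d2 level, which in the control did not differ from that of Nefh-high neurons beyond counting error. It was 10.8 CPM (8.92 to 12.9) in the control library against 14.9 CPM (11.3 to 19.2) after CFA. Against Mrgpra3 neurons, which share much of the non-peptidergic profile, Cacna2d2 was lower in Mrgprd neurons by a log2 difference of -3.21 (-3.52 to -2.90) in the control and -2.39 (-2.92 to -1.87) after CFA. The median Mrgprd neuron had 0 UMIs of Cacna2d2 in both libraries, although these were among the deepest neurons, with medians of 72752 and 62088 UMIs. In contrast to Cacna2d1, Cacna2d2 did not differ beyond counting error between the 2 peptidergic C classes, with log2 differences of Sstr2-positive over Sstr2-negative of -0.09 (-0.23 to 0.05) and 0.19 (-0.03 to 0.42).

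Cacna2d3, which lacks the arginine triplet, had another order. It was highest in cLTMR, at 102 CPM (92.2 to 113) in the control library against 91.7 CPM (79.5 to 105) after CFA, above all other neurons by 1.98 (1.81 to 2.15) and 2.18 (1.92 to 2.44) on the log2 scale. UMIs of Cacna2d3 were present in 98.5% of 65 control and 95.6% of 45 CFA cLTMR. Trpm8 neurons had 79.1 CPM (67.8 to 91.7) and 47.9 CPM (35.3 to 63.5), and Nefh-high neurons 65.2 CPM (50.2 to 83.3) and 58.4 CPM (38.2 to 85.6). Sst and Nppb neurons and Mrgpra3 neurons lay between 26.4 and 38.1 CPM in both libraries.

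Nefh-high peptidergic neurons had 65.2 CPM (47.9 to 86.7) of Cacna2d3 in the control library against 30.3 CPM (19.0 to 45.9) after CFA. This class was mixed for the gene: 6 of 14 control and 9 of 14 CFA neurons held a UMI, and the control median was 0 CPM against an upper quartile of 106 CPM. Mrgprd neurons had 17.2 CPM (14.8 to 19.9) and 15.4 CPM (11.7 to 19.8), and Sstr2-negative peptidergic C neurons 22.5 CPM (19.2 to 26.2) and 19.6 CPM (15.1 to 25.1). Sstr2-positive peptidergic C neurons, where Cacna2d1 was highest, had the lowest Cacna2d3 level, 4.82 CPM (3.09 to 7.17) and 2.94 CPM (1.18 to 6.06). There, 11.9% of the control and 7.14% of the CFA neurons held a UMI. The summed level of Cacna2d3 thus differed between the 2 peptidergic C classes. For Sstr2-positive over Sstr2-negative neurons the log2 difference was -2.22 (-2.90 to -1.60) in the control and -2.74 (-4.11 to -1.61) after CFA. Among Sstr2-negative neurons, 37.2% of the control and 25.5% of the CFA neurons held a UMI. Their median was 0 CPM in both libraries, so their summed level rests on a minority of neurons.

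The make-up of the family was read on 2 scales, by UMIs and by UMIs per kb of the principal transcript. RNA captured by its poly(A) tail may give about 1 UMI per molecule whatever its length. Division by length then raises the share of Cacna2d3, whose transcript has 3695 bases, against Cacna2d1 with 7311 bases. By UMIs, Cacna2d1 made up 76.4% (75.8% to 77.0%) of the family in control neurons and 80.5% (79.7% to 81.4%) in CFA neurons. By UMIs per kb of the principal transcript, its share was 67.3% and 72.5%, that of Cacna2d2 20.9% and 17.7%, and that of Cacna2d3 11.8% and 9.79%. Mrgprd neurons and Sstr2-positive peptidergic C neurons were the most one-sided, with 84.4% and 83.8%, and 77.0% and 82.5%, of UMIs per kb from Cacna2d1.

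In cLTMR, Cacna2d1 and Cacna2d3 were about equal per kb, with 42.5% and 42.0% in the control and 45.5% and 41.6% after CFA. Nefh-high neurons had 54.5% and 37.9% in the control, and 47.5% and 36.5% in the CFA library. Sst and Nppb neurons had more Cacna2d2 than Cacna2d1 per kb in the control library (42.6% and 37.8%), but not in the CFA library (29.2% and 56.6%). The control shares rest on 67 and 84 UMIs in 13 neurons, and no interval was computed for shares per kb. By UMIs, Cacna2d2 did not exceed Cacna2d1 in this class in either library. In cLTMR, Cacna2d1 held 56.9% and Cacna2d3 28.4% by UMIs in the control, and 60.1% and 27.8% after CFA. In Nefh-high neurons these shares by UMIs were 68.9% and 24.2% in the control, and 61.5% and 23.9% after CFA.

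**Figure D3:**
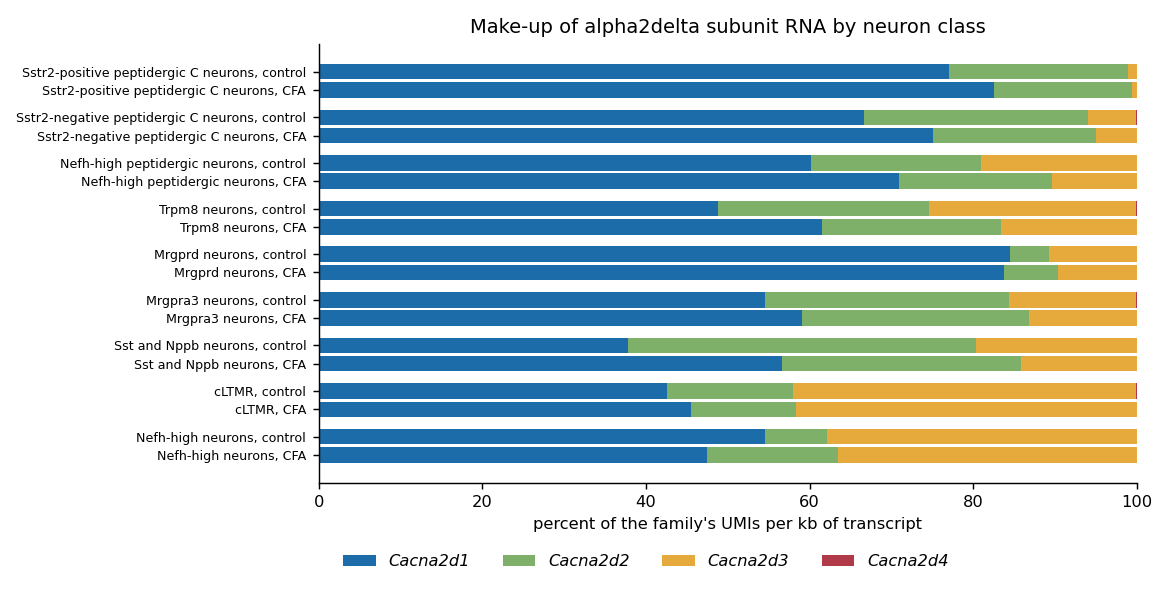
Share of each member in the family's UMIs per kb of principal transcript (x axis, percent, bars add to 100) in the 9 neuron classes, with the control bar above the CFA bar. Cacna2d1 (blue) holds 84.4% and 83.8% in Mrgprd neurons, and Cacna2d3 (yellow) reaches 42.0% and 41.6% in cLTMR. Cacna2d4 (red) is too rare to be seen as more than a line. By UMIs without division by length, Cacna2d3 holds 28.4% and 27.8% in cLTMR.

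Genes with the most similar pattern across the 9 classes were ranked by the lower of the 2 libraries' Pearson r of log2(CPM + 1), over 8609 genes with at least 200 counts in the neurons of each library. For Cacna2d1 these were Celf5 (r = 0.91), which encodes an RNA-binding protein, Phlda1 (r = 0.91) and Vim (r = 0.90), which encodes vimentin. For Cacna2d2 they were Tmbim1 (r = 0.89), Psd3 (r = 0.89) and Tcaf1 (r = 0.86), the last encoding a regulator of TRP channels such as TRPM8. For Cacna2d3 they were Cabp1 (r = 0.94), which encodes a calcium-binding protein that binds calcium channels, Arhgap44 (r = 0.92) and Tle4 (r = 0.86). Between the members, r was 0.43 in the control and 0.62 after CFA for Cacna2d1 and Cacna2d2, and -0.62 and -0.78 for Cacna2d1 and Cacna2d3. These are descriptions over 9 points that share their library and its depth, picked from 8609 genes.

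Between the libraries, differences of the members over all neurons were small. The log2 ratio of CFA over control CPM was 0.21 (0.17 to 0.25) for Cacna2d1, -0.13 (-0.23 to -0.04) for Cacna2d2 and -0.17 (-0.32 to -0.02) for Cacna2d3. None was past 0.5 in size, the limit used here, which 6.24% of the 14438 genes with at least 50 counts exceeded upward and 6.10% downward. The interval lay above 0 for 22.1% and below 0 for 21.7% of these genes, so an interval that leaves out 0 was common between these libraries. The median gene was at -0.00 on the log2 scale. With every class given the same weight in both libraries, the ratios of the members were 0.17, -0.26 and -0.41.

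Among the 9 classes, the interval of the Cacna2d1 ratio lay above 0 in both peptidergic C classes, in Trpm8 neurons and in Sst and Nppb neurons. Neurons of no class also had more after CFA, with 497 CPM (472 to 524) in the control library against 616 CPM (572 to 663). The log2 ratio was 0.35 (0.27 to 0.43) in Sstr2-positive peptidergic C neurons, a class in which the interval lay above 0 for 12.4% of the genes with at least 20 counts. In Sstr2-negative peptidergic C neurons it was 0.23 (0.15 to 0.31), where 12.5% of genes had such an interval. For Trpm8 neurons it was 0.22 (0.03 to 0.41), where 6.55% did. Here 3 neurons with at least 2000 CPM of Calca gave 126 of the 352 Cacna2d1 UMIs after CFA. In the control library 9 such neurons gave 257 of 667. Among Trpm8 neurons with less Calca, the Cacna2d1 intervals of the libraries overlapped (control: 199 to 242 CPM, CFA: 222 to 289 CPM). The part of the Calca-high neurons in the Trpm8 ratio was not tested. Mrgprd neurons, with a ratio of -0.01 (-0.12 to 0.09), cLTMR with -0.05 (-0.22 to 0.13), Nefh-high peptidergic neurons with 0.01 (-0.23 to 0.25), Mrgpra3 neurons with -0.13 (-0.36 to 0.09) and Nefh-high neurons with -0.30 (-0.73 to 0.11) had intervals that held 0. With every cell weighted equally the ratio in Nefh-high neurons turned to 0.39; the 14 CFA neurons of this class had a median depth of 16056.5 UMIs, against 48599 UMIs in the 20 control neurons. Whether the ratios differ between classes was not tested.

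The only class in which Cacna2d1 passed 0.5 was Sst and Nppb neurons, with a log2 ratio of 0.73 (0.33 to 1.14). In this class 14.4% of 7377 genes passed 0.5 upward and 7.56% had an interval above 0. It rests on 84 UMIs in 13 control and 142 UMIs in 12 CFA neurons. The control neurons ranged from 64.6 to 246 CPM with a median of 154 CPM, and the CFA neurons from 80.2 to 409 CPM with a median of 249 CPM, so the groups of cells overlapped. Some nerve injury genes also differed between the libraries in this class. Sprr1a was found with 22 UMIs in 1 CFA neuron of this class and Ecel1 with 24 UMIs in 2, and neither was found in its control neurons. Without the neurons that hold either gene, the ratio was 0.67. Sox11, a transcription factor gene of the regeneration programme, was at 6.93 CPM (1.89 to 17.8) in the control library, from 4 UMIs in 3 of the 13 neurons, against 81.9 CPM (60.4 to 109) after CFA, from 48 UMIs in 6 of the 12. Atf3, a transcription factor gene induced by axon injury, was at 484 CPM (429 to 544) and 619 CPM (557 to 686), and Gal, a neuropeptide gene, had 3 UMIs in each library. In the neurons with a UMI of Sox11, Cacna2d1 was at 165 CPM (106 to 245) and 275 CPM (218 to 342), and in those without at 139 CPM (106 to 179) and 210.2 CPM (161 to 269). The part of these genes in the ratio of Cacna2d1 was not otherwise tested.

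**Figure D4:**
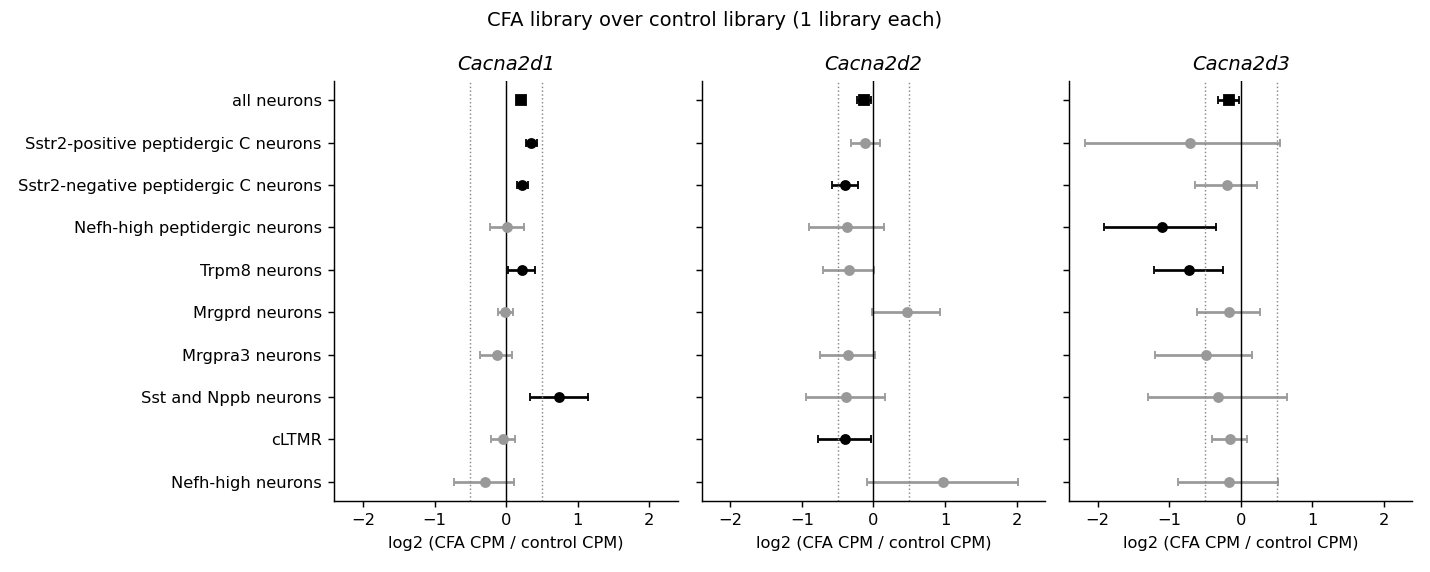
Log2 ratio of CFA over control CPM (x axes) of Cacna2d1, Cacna2d2 and Cacna2d3 in all neurons (squares) and in the 9 classes (circles), with exact 95% intervals for counting error; black marks intervals that leave out 0, grey those that hold it, and dotted lines stand at -0.5 and 0.5. For Cacna2d1 the intervals lie above 0 in 4 classes and below 0 in 0, and for Cacna2d3 all 9 ratios lie below 0 but 7 of the 9 intervals hold 0. The ratios of all classes rest on the same 2 libraries.

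Cacna2d2 was lower in the CFA library in 7 of the 9 classes. Neurons of no class went the other way, at 108 CPM (96.5 to 121) in the control library against 141 CPM (120 to 164) after CFA. The share of all genes lower in as many classes was not computed. The interval left out 0 in Sstr2-negative peptidergic C neurons, with a log2 ratio of -0.40 (-0.57 to -0.22), and in cLTMR, with -0.39 (-0.77 to -0.03); in these classes 12.8% and 10.8% of all genes had an interval below 0. In Sstr2-negative peptidergic C neurons the median neuron had 132 CPM in the control library against 104 CPM after CFA, and the share of neurons with a UMI was 94.8% and 85.7%. Thinned to 5000 UMIs, these shares were 49.7% (42.4% to 57.1%) and 41.2% (31.3% to 51.7%), with overlapping intervals. In Sstr2-positive peptidergic C neurons the ratio was -0.11 (-0.31 to 0.09). Nefh-high neurons had 0.97 (-0.10 to 2.03), past 0.5 but with an interval that holds 0, from 18 and 16 UMIs; 15.2% of 8387 genes passed 0.5 upward in this class. Mrgprd neurons had 0.46 (-0.02 to 0.93), while the share of these neurons with a UMI was 38.2% in the control and 28.6% after CFA. Thinned to 5000 UMIs, this share was 4.49% and 7.94%.

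Cacna2d3 was lower in the CFA library in all 9 classes, with an interval below 0 in 2. The 9 ratios rest on the same 2 libraries, and the share of all genes lower in all 9 classes was not computed. In Nefh-high neurons the ratio of -0.16 turned to 0.09 without neurons that hold Sprr1a or Ecel1. In Trpm8 neurons the log2 ratio was -0.72 (-1.21 to -0.25), from 79.1 to 47.9 CPM; 13.2% of 10183 genes passed -0.5 in this class and 8.59% had an interval below 0. With the minimum UMIs of the class gates doubled and their CPM limits kept, it was -0.4953, no longer past -0.5. Of the Trpm8 neurons 95.5% of the control and 69.6% of the CFA neurons held a UMI, and thinned to 5000 UMIs the shares were 22.7% and 21.7%. In Nefh-high peptidergic neurons the ratio was -1.10 (-1.90 to -0.34), where 16.5% of 8210 genes passed -0.5 and 10.2% had an interval below 0. There, the share of neurons with a UMI went the other way, with 42.9% of the control and 64.3% of the CFA neurons, so that the summed level rests on a few control neurons. In Sstr2-positive peptidergic C neurons the ratio of -0.71 (-2.17 to 0.55) comes from 24 and 7 UMIs, and 11.4% of 11845 genes passed -0.5. In cLTMR, where the gene was highest, the ratio was -0.15 (-0.41 to 0.09).

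Interferon-induced genes moved with the library. A list of 10 interferon-induced genes summed to 356 CPM in control against 185 CPM in CFA neurons, and 86 control and 25 CFA neurons had at least 500 CPM of it. Without these neurons the Cacna2d1 ratio was 0.23 in all neurons (0.21 with them), 0.35 in Sstr2-positive and 0.21 in Sstr2-negative peptidergic C neurons (0.35 and 0.23 with them). In Nefh-high neurons, where the list stood at 767 CPM in the control library against 117 CPM after CFA, it was 0.01 in place of -0.30. RNA of Fabp7 and Apoe, genes of satellite glial cells, moved with the library as well: together they were at 83.5 CPM (80.6 to 86.5) in control against 31.4 CPM (28.7 to 34.2) in CFA neurons, at 107 against 24.4 CPM in Sstr2-positive peptidergic C neurons and at 50.3 against 17.1 CPM in Sst and Nppb neurons. In satellite glial cells they were at 50043 and 44642 CPM, and their part in the ratios of the members was not tested. The median mitochondrial share of a neuron was 2.22% in the control and 2.48% after CFA. The Cacna2d1 ratio in all neurons was 0.21 without the limit on that share, 0.21 with mitochondrial genes left out of the CPM and 0.22 with a stricter cell filter, which lowers that limit and asks for more detected genes.

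Over all neurons, Atf3 was at 183 CPM in both libraries and was found in 88.8% of control and 82.6% of CFA neurons. Sox11 was at 71.5 and 68.5 CPM, and Gal at 183 and 172 CPM. The TG was dissociated with papain before capture, and neither library holds undissociated tissue for comparison. Sprr1a or Ecel1 was found in only 8 control and 4 CFA neurons, with Cacna2d1 at 313 CPM (272 to 358) and 291 CPM (224 to 373). In Sstr2-positive peptidergic C neurons Cacna2d1 was at 696 CPM (672 to 721) in the 115 control neurons with Atf3 and at 493 CPM (423 to 573) in the 11 without, and at 877 CPM (838 to 917) and 816 CPM (700 to 946) in the 63 and 7 CFA neurons. In Mrgprd neurons the corresponding levels were 269 and 250 CPM in the control, and 268 and 236 CPM in the CFA library, with overlapping intervals. Control neurons without Atf3 were shallower, with a median of 29989 UMIs against 47615.5 UMIs in those with it, and the part of depth in these levels was not tested. Neurons with a UMI of Gal had 470 (control) and 649 CPM (CFA) of Cacna2d1, and those without 250 and 245 CPM. This split also divides the classes, with Gal in 99.2% of control Sstr2-positive peptidergic C but 30.6% of control Mrgprd neurons. In Sstr2-negative peptidergic C neurons the levels were 537 CPM (519 to 556) and 650 CPM (620 to 682) with Gal. Without it they were 370 CPM (340 to 401) and 313 CPM (270 to 361), from 43 and 18 neurons.

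Calcium channel subunits and proteins related to or binding alpha2delta subunits were taken as a list of 30 genes, called the partner list. It held pore-forming subunits (T-type ones included), beta and gamma subunits, and the related protein Cachd1. It also held binding partners such as thrombospondins, Lrp1 and the NMDA receptor subunit Grin1. The list does not imply that each of these proteins assembles with alpha2delta subunits. Of the 23 genes with at least 50 counts in neurons, 4 were past a log2 ratio of 0.5 in the CFA library, 0 were past -0.5, and the median was 0.06; over all 14438 genes 6.24% and 6.10% were past these limits and the median was -0.00. The interval lay above 0 for 7 of the 23 and below 0 for 1, beside 22.1% and 21.7% of all genes. The 4 were Thbs3 (0.94, 0.52 to 1.36), Cacng4 (0.81, 0.37 to 1.24), Cacng8 (0.54, -0.32 to 1.37) and Cacna1i (0.52, 0.26 to 0.78), at 5.45, 4.90, 1.27 and 12.3 CPM in the CFA library. Cacna1i, which encodes a T-type pore, was mostly in cLTMR, at 76.1 CPM (67.6 to 85.4) and 86.3 CPM (74.5 to 99.4) with overlapping intervals; cLTMR were 65 of the 752 control and 45 of the 397 CFA neurons. The binding partner Lrp1 had a ratio of -0.42 (-0.74 to -0.11).

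Over all neurons, pore-forming subunits of presynaptic channels differed little between the libraries. Cacna1b, which encodes the N-type pore, was at 112 and 127 CPM, a log2 ratio of 0.18 (0.10 to 0.25), and Cacna1a, which encodes the P/Q-type pore, at 53.8 and 61.8 CPM, a ratio of 0.20 (0.09 to 0.31). Single classes differed more. Cacna1a was at 36.4 CPM (22.5 to 55.7) and 90.4 CPM (67.7 to 118) in Sst and Nppb neurons, from 21 and 53 UMIs. Cacna1b was at 137 CPM (127 to 148) and 187 CPM (170 to 205) in Sstr2-positive peptidergic C neurons. In Sst and Nppb neurons 7.56% of genes with at least 20 counts had a ratio interval above 0, and in Sstr2-positive peptidergic C neurons 12.4%. Cacna1a was at 40.2 CPM (26.9 to 57.8) and 73.1 CPM (54.8 to 95.6) in Nefh-high peptidergic neurons, with overlapping intervals. Values after CFA were lower for both genes in Mrgpra3 neurons and for Cacna1b in Mrgprd neurons, each with overlapping intervals. Among the beta subunits, Cacnb4 had a ratio of 0.19 (0.12 to 0.26) and Cacnb3 -0.02 (-0.06 to 0.03). Grin1 had a ratio of 0.01 (-0.08 to 0.09).

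Across classes, some of these genes were highest in the same class as a member. Cacna1b was highest in Sstr2-positive peptidergic C neurons, at 137 CPM in the control library against 187 CPM after CFA, and so was Cacnb1, at 113 and 121 CPM. Cacna1e, which encodes the R-type pore, was at 34.1 and 29.4 CPM in this class and at most 2.26 CPM in the classes without Calca in their gate. Cacna1h and Cacna1i, which encode pores of low-voltage-activated T-type channels, were highest in cLTMR, as was Cacna2d3, with 131 and 112 CPM for Cacna1h. Outside cLTMR no class had more than 1.71 CPM of Cacna1i. The class markers were chosen without these genes, and the likeness is a description.

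Outside neurons the members were rare, and neurons held 98.4% of the family's UMIs of all assigned cells in the control and 98.7% after CFA. Of all kept cells, assigned or not, neurons held 18717 of 19631 family UMIs in the control and 8967 of 9394 after CFA. Being deep, they also held 37789520 of 48233077 UMIs of all genes in the control and 16514256 of 21658155 after CFA. Mural cells, the contractile cells of vessel walls, had the highest level of Cacna2d1, 127 CPM (61.1 to 234) in 52 control cells against 117 CPM (24.2 to 343) in 18 CFA cells, from 10 and 3 UMIs. Fibroblasts had 55.6 CPM (42.1 to 72.0) and 38.6 CPM (23.6 to 59.6). Myelinating Schwann cells had 40.6 CPM (33.2 to 49.2) and 27.4 CPM (19.0 to 38.3), and non-myelinating ones 43.9 CPM (25.6 to 70.3) and 14.0 CPM (1.70 to 50.7). Satellite glial cells, which wrap the neurons, had 19.6 CPM (14.0 to 26.6) and 20.6 CPM (10.98 to 35.2). The log2 ratio of CFA over control was -0.53 (-1.34 to 0.23) in fibroblasts and -0.57 (-1.17 to 0.00) in myelinating Schwann cells. Both were past -0.5 with intervals that held 0, and the share of all genes past it was not computed for either type. In satellite glial cells the ratio was 0.08 (-0.95 to 1.01). RNA of neurons was also lower in these types after CFA: UMIs of Prph, Scg2 and Pirt, genes of neurons, were at 157 CPM in control against 65.6 CPM in CFA fibroblasts, at 196 against 106 CPM in myelinating Schwann cells and at 154 against 72.9 CPM in satellite glial cells, and the part of this RNA in the ratios was not tested.

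RNA set free by neurons can give UMIs in other cells, so the share of cells with a UMI was read beside cell types that should lack the gene. Cacna2d1 was found in 19.2% of control and 16.7% of CFA mural cells and in 8.76% and 4.83% of fibroblasts, at median depths of 1284, 1070, 1766 and 1320 UMIs. It was found in 4.07% and 2.51% of myelinating Schwann cells and 4.24% and 4.17% of satellite glial cells. No UMI was found in 40 control and 21 CFA T and NK cells, which allows shares of up to 7.50% and 14.3% (3 counts; exact upper bounds 8.81% and 16.1%), or in 38 and 20 neutrophils and monocytes, which allows up to 7.89% and 15% (exact upper bounds 9.25% and 16.8%). Erythroid cells had it in 0 of 22 control and 1 of 56 CFA cells. The interval of the share was 9.63% to 32.5% in control mural cells, 3.58% to 41.4% in CFA mural cells, which rest on 3 of 18, and 6.49% to 11.5% in control fibroblasts. No share of a non-neuronal type was thus separated from what these immune cells allow in both libraries, but so few CFA cells give wide bounds. Macrophages, with 161 control and 144 CFA cells, had it in 4.35% (1.77% to 8.75%) and 0.694% (0.0176% to 3.81%). Their median depths were 1950 and 1648 UMIs. The interval of control mural cells lay above that of control macrophages. Those of CFA mural cells and of fibroblasts in both libraries overlapped the macrophage interval of the same library.

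The counts were also set against the UMIs of Prph, Scg2 and Pirt. In neurons there were 81.9 (80.5 to 83.3) UMIs of Cacna2d1 per 1000 of these in the control and 92.7 (90.5 to 95.01) after CFA. Fibroblasts had 354 (257 to 482) and 588 (321 to 1052), myelinating Schwann cells 207 (166 to 256) and 258 (171 to 378), and mural cells 476 (200 to 1056) and 1000 (134 to 7466). In these 3 types the ratio was above that of neurons beyond counting error in both libraries, and in satellite glial cells as well, with 127 (89.0 to 177) and 283 (140 to 532). Non-myelinating Schwann cells had 246 (136 to 424) and 143 (15.8 to 622), and oligodendrocyte-like cells 179 (67.7 to 406) and 360 (148 to 797). Macrophages, with 108 (41.7 to 235) and 50 (1.21 to 313), and endothelial cells, with 68.97 (18.2 to 186) and 167 (18.1 to 749), had intervals that held the value of neurons. The 3 reference genes were chosen after the levels were seen, and the ratio that free RNA has by itself was not measured, so these values do not separate free RNA from expression.

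Cacna2d2 and Cacna2d3 had at most 12 and 6 UMIs in any non-neuronal type of a library. For Cacna2d2 the ratio to the reference UMIs was 18.0 (17.4 to 18.6) in control neurons, 23.9 (12.2 to 42.0) in control myelinating Schwann cells and 25.4 (10.9 to 50.7) in control satellite glial cells, which hold the neuronal value. Control endothelial cells had 121 (46.5 to 265), from 7 UMIs in 232 cells, but 0 UMIs were found in 132 CFA cells. Fibroblasts had 49.7 (21.1 to 100) in the control and 235 (94.1 to 518) after CFA, against 16.1 (15.2 to 17.0) in CFA neurons, from 8 UMIs in each library. Non-myelinating Schwann cells had 43.5 (8.75 to 132) and 357 (100.7 to 1049), from 3 and 5 UMIs.

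**Figure D5:**
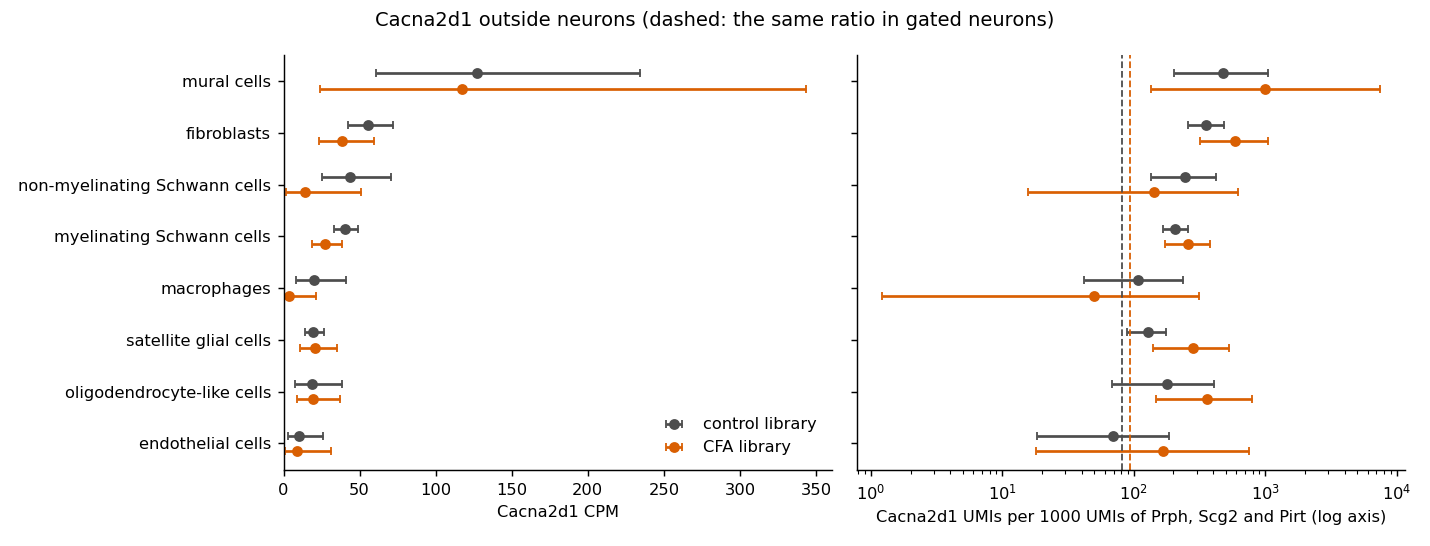
Cacna2d1 outside neurons, as CPM (left, linear axis) and as UMIs per 1000 UMIs of the neuronal genes Prph, Scg2 and Pirt (right, log axis), in 8 non-neuronal cell types by library, with exact 95% intervals for counting error; dashed lines give the ratio in neurons, 81.9 and 92.7. Fibroblasts, myelinating Schwann cells, mural cells and satellite glial cells lie right of both lines in both libraries.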

How the data were processed

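The authors deposited, per library, a matrix of whole-number UMI counts per gene and cell from the BD Rhapsody whole transcriptome assay on an Illumina NovaSeq; the counts are raw and not normalized. The submitters' processing notes name fastp and the build GRCm38; the aligner and annotation are not given in the sources used here. In the files, 7298 control cells carry 48916096 UMIs and 4080 CFA cells 22096268 UMIs. A minimum of 150 detected genes and a mitochondrial share of up to 25% left 6695 and 3661 cells.

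Neurons had at least 50 UMIs and 0.5% of Tubb3, Snap25, Uchl1, Stmn2, Syt1 and Elavl4, and 29 control and 6 CFA neurons with at least 5 UMIs and 0.1% of a non-neuronal marker list were left out as mixed. Doublets were otherwise kept. A class needed at least 100 CPM and 3 UMIs of Mrgprd or Mrgpra3, 400 CPM of Sst and Nppb, 50 CPM of Trpm8, 100 CPM of Tafa4, Slc17a8 and Th, 400 CPM of Nefh, 2000 CPM of Calca, and at least 2 (positive) or 0 (negative) UMIs of Sstr2; 76 control and 45 CFA neurons were given no class. Minimum UMIs were also set, at 5 for Sst and Nppb, 3 for Trpm8, 5 for the cLTMR genes and 10 for Nefh. Other cells took the type of the highest score of 11 marker lists. The cell types are thus rebuilt from markers and are not the authors' clusters; the limits were set after marker values were seen, and the members and lists were chosen with earlier results of these data known.

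For each class, UMIs were summed within a library and scaled to CPM. Intervals are at 95%: CPM have exact Poisson bounds, ratios bounds from the binomial given the total, and shares Clopper-Pearson bounds; their code was tested on simulated data. With 1 library per condition no test between conditions was made; called means a log2 ratio past 0.5. A class ratio needed at least 10 cells in each library and 20 counts in both together. Named genes are the members, the partner and injury lists, and for each member the 3 genes most like it across classes, gate markers left out; some genes of the lists are not reported here. Shares were also read after thinning neurons to 5000 and other cells to 500 UMIs. The software was pandas 2.3.3, scipy 1.17.1, numpy 2.4.6 and Python 3.11.15; proteins were aligned with MAFFT 7.526.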

Additional observations from a re-analysis of the deposited data

How the results depend on the processing

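Under 12 alternatives the ratio of CFA over control in all neurons kept its direction for Cacna2d1 (log2 0.17 to 0.27), Cacna2d2 (-0.26 to -0.10) and Cacna2d3 (-0.41 to -0.03). Giving every neuron class the same weight moved it outside the counting interval for all 3, to 0.17, -0.26 and -0.41, and thinning every neuron to 5000 UMIs moved that of Cacna2d1 to 0.27. The stricter filter, no mitochondrial limit, the doubled neuron gate, mixed cells kept, CPM without mitochondrial genes, equal weight of cells and centring left all 3 within it, as did leaving out shared cell indices, interferon-high neurons or neurons under 20000 UMIs, alternatives chosen after seeing the data. Of 179 class ratios recomputed, 1 left its interval, that of Cacna2d1 in Nefh-high neurons with equal weight of cells (0.39). Of 720 class levels 17 left theirs. Among them was Cacna2d1 in control Trpm8 neurons with the minimum UMIs of the class gates doubled (219 CPM). The CPM limits of the gates were not doubled in that alternative. Thinning lowered shares by construction, and 75 of 120 left their interval. The partner list had 4 genes past 0.5 and 0 past -0.5 under each of the 4 alternatives run for it; whether these were the same genes was not compared, and equal weight of classes was not run for the list. No paired analysis was possible because each condition has 1 library. Depth limits Cacna2d4, the non-neuronal types and classes of under 25 neurons, and differences between animals cannot be seen in these data.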

Other observations

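Cells outside the classes held the members as well. The 76 control and 45 CFA neurons of no class had 497 CPM (472 to 524) and 616 CPM (572 to 663) of Cacna2d1 and 108 CPM (96.5 to 121) and 141 CPM (120 to 164) of Cacna2d2. The 456 control and 129 CFA cells between the gates for neurons and other cells, with median depths of 1513 and 1608 UMIs, had 222 CPM (194 to 252) and 362 CPM (303 to 428) of Cacna2d1.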
